A study of Mus musculus with 6 samples.

Results

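Parietal epithelial cells, the flat cells that line Bowman's capsule around the glomerulus, were examined in single-cell profiles of mouse glomeruli. The cells were chosen by measured values: among 13993 barcodes that passed a minimum of 300 genes and a mitochondrial share of no more than 20%, 102 held at least 3 transcripts summed over Lsp1, Pla2g7, Cst12, Dkk3, Cldn1, Pax8 and Cp. They also held at most 2 transcripts of distal tubule genes (Slc12a3, Umod, Pvalb, Aqp2, Atp6v1g3) and at most 1 each over endothelial (Pecam1, Cdh5, Emcn, Egfl7, Ly6c1), mural (Myh11, Ren1, Rgs5) and immune genes (Tyrobp, Laptm5, Cd74, Lyz2, Ptprc). The levels of these 25 genes in the cells they chose are therefore a description with no test.

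The series measured glomerular RNA of male mice, 8 weeks old, of the CD1 IGS outbred stock, with no genetic change or treatment named. Dissociated glomeruli, fixed as cells in 80% methanol, gave 4 Drop-seq libraries (replicates 1 to 4). Drop-seq joins each cell to a bead in a droplet, a barcode on the bead names the cell, and a unique molecular identifier (UMI) marks each captured transcript, so that a UMI is 1 transcript counted once. 1 bulk library came from whole live glomeruli without fixation (500 ng of RNA), and 1 came from sorted cells of dissociated glomeruli, fixed in the same way (95 ng of RNA). The labels do not say that the libraries came from separate animals, so the spread over them may be technical.

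As background, parietal cells continue at the vascular pole into the podocytes and at the urinary pole into the proximal tubule, and share a nephron progenitor origin with both. In the resting capsule they form a quiet epithelium joined by claudin-rich tight junctions on a thick basement membrane. After glomerular injury they are known for migrating, laying down matrix and forming crescents.

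Replicates 1 to 4 gave 27, 22, 24 and 29 parietal cells, or 0.659%, 0.548%, 0.854% and 0.945% of the kept barcodes (0.752% ± 0.181, SD, n = 4). The exact binomial 95% intervals of these shares overlapped, from 0.435% to 0.957% in replicate 1 and from 0.634% to 1.35% in replicate 4; such intervals cover counting error only. The 102 cells held 155032 UMIs in all, with a median of 1276.5 UMIs and 817.5 genes per cell and a range of 481 to 4785 UMIs. Levels are given as CPM, the counts of a gene per 1000000 UMIs, over the summed cells of a library. Over all parietal cells 1 UMI was worth 6.45 CPM, and a gene with no UMI could have been at up to 19.4 CPM (3 UMIs). Within replicates 1 to 4 a single UMI was worth 27.3, 30.7, 26.6 and 20.7 CPM, and 3 UMIs 81.9, 92.1, 79.8 and 62.2 CPM. Parietal levels of a library below the latter values rest on fewer than 3 UMIs. No barcode sequence of a parietal cell was found in another library, against 15 sequences shared between libraries over all barcodes. The median mitochondrial share was 4.22% in parietal cells, 4.21% in podocytes and 14.6% in distal tubule cells. A doublet caller was not run on these 102 cells.

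The comparison cells were chosen by the same limits and by at least 3 UMIs of their own genes: 10100 podocytes (4 podocyte genes, Nphs1, Podxl and Synpo among them), 759 distal tubule cells and 1332 endothelial cells. Their median depths were 1053, 1828 and 685.5 UMIs. Each of these cells held at most 1 UMI over the 7 parietal markers.

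The 7 markers were first checked against each other, each left out of the choice in turn so that its level did not pick the cells. The other 6 markers then chose between 69 and 95 cells, and the left-out gene was higher in them than in podocytes in 4 of 4 libraries for each of the 7. With 4 libraries the exact paired permutation test (two-sided) can give no p below 2 of its 16 sign patterns (p = 0.13, rounded), which is the value each of the 7 markers gave, before and after adjustment over the 7. The levels did not go against the label of the cells. The same markers chose these cells in earlier work on these data, so this is no independent support for the name.

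**Figure D1:**
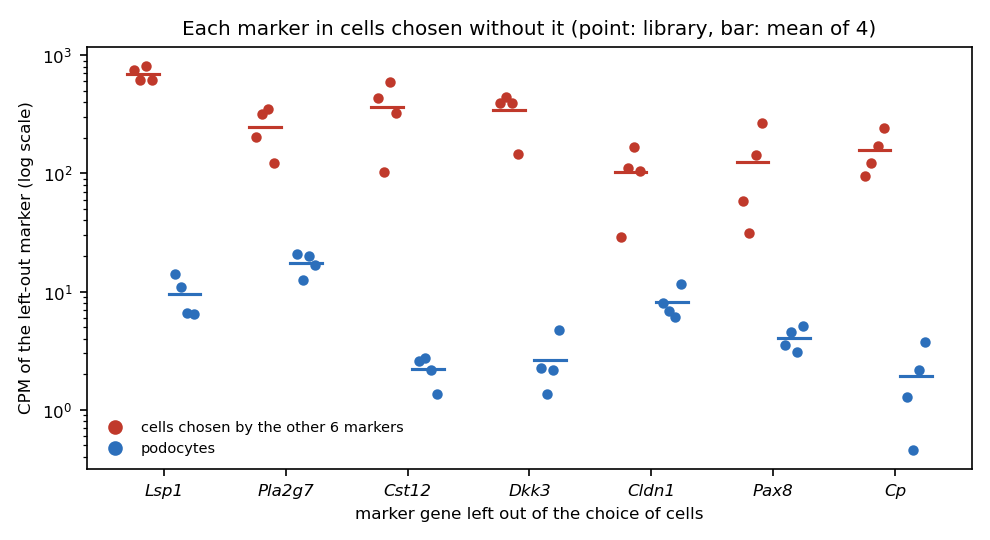
CPM of each marker gene (log axis) in cells chosen by the other 6 markers (red) and in podocytes (blue), 1 point per Drop-seq library, with bars at the means of 4 libraries. For all 7 genes each red point lies above each blue point.

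Among the secreted markers, Dkk3, a glycoprotein of the dickkopf family, reached 395, 446, 398 and 146 CPM in replicates 1 to 4 where it was left out, and 2.25, 1.38, 2.19 and 4.78 CPM in podocytes. Its means were 346 ± 136 against 2.65 ± 1.47 CPM (SD, n = 4 libraries). Cst12, a member of the cystatin family of protease inhibitors, stood at 438, 103, 593 and 325 CPM against 2.57, 2.75, 2.19 and 1.37 CPM, and no UMI of it was found in distal tubule, endothelial or mural cells. Cp, the copper-carrying ferroxidase ceruloplasmin, had 94.2, 123, 170.0 and 241 CPM against 1.29, 0.459, 2.19 and 3.76 CPM. The groups did not overlap for any of these genes, and replicate 4 was the lowest library for Dkk3 and the highest for Cp.

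Pla2g7, which encodes the hydrolase of platelet-activating factor, gave 203, 321, 351 and 122 CPM against 20.9, 12.6, 20.1 and 16.7 CPM in podocytes. Lsp1, an F-actin-binding protein first described in lymphocytes, was the highest of the left-out markers, with means of 698 ± 95.1 against 9.53 ± 3.71 CPM (SD, n = 4 libraries). It is also an immune gene. The 29 immune cells of the series held 307 CPM of Lsp1 as a mean over the libraries, from 6 UMIs in 6 cells. These immune cells were chosen with at most 1 UMI over the parietal markers, Lsp1 included. That limit caps their Lsp1 level, so it cannot be compared with the level in cells chosen without Lsp1. The other 10 immune marker genes outside the rule, C1qa, Cd52 and Coro1a among them, were at 0 UMIs in the parietal cells of all 4 libraries.

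Cldn1, the claudin of parietal cell tight junctions, had 28.7, 112, 166 and 105 CPM where it was left out, and no UMI in the distal tubule or endothelial cells. Pax8, a paired-box transcription factor of the nephron epithelium, gave 58.3, 31.6, 144 and 266 CPM, with means of 125 ± 106 against 4.08 ± 0.939 CPM (SD, n = 4 libraries). Distal tubule cells held 24.1 CPM of Pax8, which places it between podocytes and parietal cells. Pax2 and Krt18 were at 0 UMIs in the 102 cells.

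At the depth of these cells each marker was seen in a minority of barcodes. Among cells chosen without it, Lsp1 had a UMI in 30 of 69 cells (43.5%, exact binomial 95% interval 31.6% to 56.0%), Dkk3 in 28 of 87 (32.2%), Cst12 in 27 of 90 (30%), Pla2g7 in 20 of 73 (27.4%), Pax8 in 16 of 95 (16.8%), Cp in 13 of 90 (14.4%) and Cldn1 in 11 of 91 (12.1%). In podocytes, with a median of 1053 UMIs per cell, the shares ran from 0.148% (Cp) to 1.68% (Pla2g7). By the full rule, 85 of the 102 cells held UMIs of 2 or more marker genes, 54 of 3 or more and 1 of all 7. The remaining 17 cells rested on 1 gene alone, Pla2g7 in 6, Lsp1 in 4 and Cst12 in 3 of them. The median was 4 marker UMIs per cell and the highest 18.

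Just inside the threshold stood 45 cells with exactly 3 marker UMIs, and just outside it 96 barcodes with exactly 2. Their median depths were 1066 and 996 UMIs, against 1719 UMIs in the 57 cells above 3. A list of 20 podocyte genes took 2.23% of UMIs at 2 marker UMIs, 1.90% at 3 and 1.49% above 3. A further 5 kept barcodes had 3 or more marker UMIs but passed a limit on another cell type.

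The parietal cells carried podocyte transcripts, and more of them than the tubule or endothelial cells of the same libraries. The list of 20 podocyte genes held 1.24%, 2.26%, 1.57% and 1.60% of parietal UMIs in replicates 1 to 4. It held 3.04% ± 0.213 of podocyte UMIs, 0.265% ± 0.0727 of distal tubule UMIs and 0.572% ± 0.0724 of endothelial UMIs (SD, n = 4 libraries). The parietal share lay above that of tubule and of endothelial cells in 4 of 4 libraries, with no overlap, and exact paired permutation gave p = 0.13 for both, the smallest it allows. It lay below the podocyte share in 4 of 4 libraries, a difference that the choice of podocytes by 4 of the 20 genes bears on. Whether these transcripts were made by the parietal cells, came from free RNA or came from a podocyte in the same droplet was not tested.

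**Figure D2:**
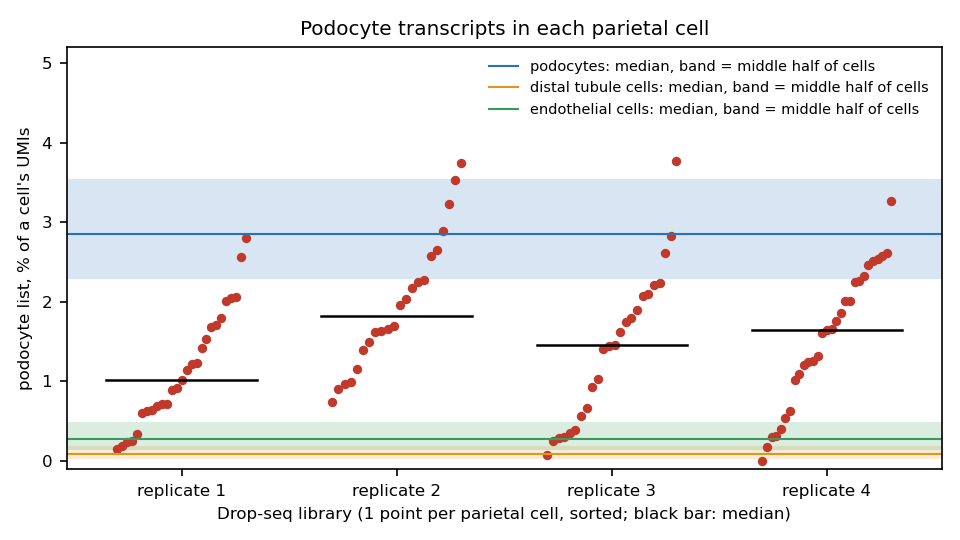
Share of a cell's UMIs taken by 20 podocyte genes (linear axis, percent), 1 point per parietal cell sorted within its library, with black bars at library medians, and lines and bands for the median and the interquartile range of podocytes (blue), distal tubule (yellow) and endothelial cells (green). Parietal cells spread from 0% to 3.76% and fill the gap between the other types.

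Single cells varied widely in this share. The quartiles over the 102 cells were 0.726%, 1.51% and 2.09%, against 2.29%, 2.86% and 3.54% in podocytes, and 1 parietal cell had no podocyte UMI. The highest parietal cell, at 3.76%, lay above the podocyte median. Replicate 1 gave 11 of the 26 cells at or below 0.722%, and replicate 2 gave none. Replicate 2 also had the highest summed share, so the libraries differed in this respect.

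The markers did not all move alike along this range. Within each library the cells were split at the library's median podocyte share into 52 cells with less and 50 with more, and the levels below are a description with no test. Cp was at 869, 147, 494 and 916 CPM in the cells with less podocyte transcript and at 97.4, 105, 0 and 0 CPM in those with more. It was higher in the former in 4 of 4 libraries, and 22 of the 52 against 3 of the 50 cells had a UMI of it. Cst12 gave 621, 442, 1152 and 458 against 536, 210.5, 155 and 289.5 CPM and Lsp1 1552, 1105, 2031 and 749 against 925, 842, 309.7 and 703 CPM, both also higher with less podocyte transcript in 4 of 4 libraries. Pla2g7 went the other way in 4 of 4 libraries, with 435, 515, 329 and 208 CPM in the cells with less and 487, 631, 1136 and 909.9 CPM in the cells with more. Dkk3 had no common direction: 310.4, 736, 219.5 and 541 against 730.4, 263, 619 and 372 CPM. The median depth was 1106.5 UMIs in the cells with less podocyte transcript and 1426 UMIs in those with more, and its part in these differences was not tested.

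**Figure D3:**
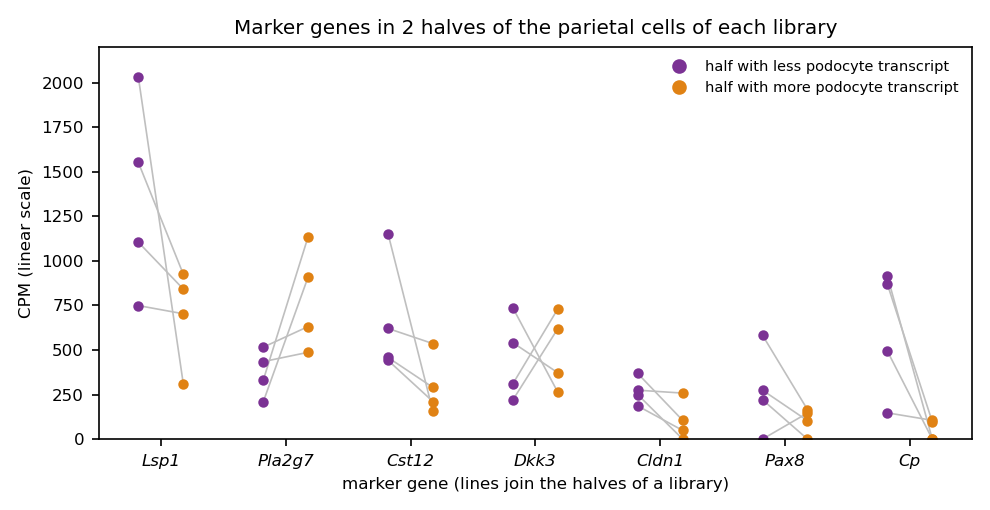
CPM of the 7 marker genes (linear axis) in parietal cells with less (purple) and more (orange) podocyte transcript than their library's median, with a grey line joining the groups of 1 library. The lines fall for Lsp1, Cst12, Cldn1 and Cp, rise for Pla2g7, and cross for Dkk3 and Pax8.

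Outside the rule, the UMIs of each cell type were added up within a library and tested over 6180 genes with edgeR's quasi-likelihood test, with the library as a block and Benjamini-Hochberg adjustment (threshold 0.05). Parietal cells were higher than podocytes for 213 genes (3.45% of those tested) and lower for 222 (3.59%). Without replicate 4 the lower genes numbered 131. Under another scaling of the libraries (relative log expression) the split was 229 higher and 157 lower. It was 269 and 140 with library totals, so the balance of directions against podocytes depends on the scaling. DESeq2, which changes the model as well as the scaling, gave 373 and 137. Against distal tubule cells 834 genes were higher (13.5%) and 1049 lower (17%), and against endothelial cells 647 were higher (10.5%) and 903 lower (14.6%). With library totals these splits turned to 1336 higher and 709 lower against the tubule, and to 800 and 716 against endothelial cells. Relative log expression moved the median difference over all genes by -0.12 against the tubule. Library totals moved it by 0.14, 0.45 and 0.18 against podocytes, tubule and endothelium.

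A total of 58 genes were higher in parietal cells than in all 3 other types, and 50 of them (0.809% of the genes tested) also did so in 4 of 4 libraries with a mean of at least 30 CPM. Leaving out 1 library gave 45 to 76 such genes before the last step. The 20 with the widest margin are described here by what they encode. All 20 were called again with relative log expression, with library totals and with DESeq2. When only the 51 cells with the lowest podocyte share over all libraries were kept, 16 of the 20 were called. That share was taken over the 4 genes that chose podocytes. With each type fitted alone with parietal cells, 13 were called. The filter on low counts kept genes with enough counts in at least 4 of the library sums. Genes near 0 in the other types, Igfbp2, Ogn, Fam180a and Loxl1 among them, entered the test only through their parietal levels. For such genes, being higher in 4 of 4 libraries without overlap follows from that entry and adds no support.

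Among secreted signals, Igfbp2, which binds insulin-like growth factors, stood at 191, 276, 106 and 228 CPM in replicates 1 to 4. Podocytes held 0.967, 0.688, 2.63 and 0.342 CPM, and distal tubule and endothelial cells held no UMI. The level was at least 114-fold higher than in tubule and at least 74.4-fold higher than in endothelial cells. Each of these was taken at 3 UMIs over its 4 libraries. Against podocytes Igfbp2 was higher by 7.29 ± 0.63 on the log2 scale (SE, edgeR adjusted p = 6.3e-15). Bmp4, a bone morphogenetic protein ligand, had 109, 184, 213 and 145 CPM against 0.638 ± 0.222 CPM (SD, n = 4) in podocytes (log2 difference 7.59 ± 0.67 (SE), edgeR adjusted p = 6.3e-15). It was also above tubule (5.08 CPM) and endothelial cells (11.2 CPM). Igfbp2 had UMIs in 15 of the 102 cells (14.7%) and in 9 podocytes (0.0891%). Thinned to 500 UMIs per cell, which left out 2 parietal cells and 493 podocytes, the shares were 11% and 0.0416%.

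**Figure D4:**
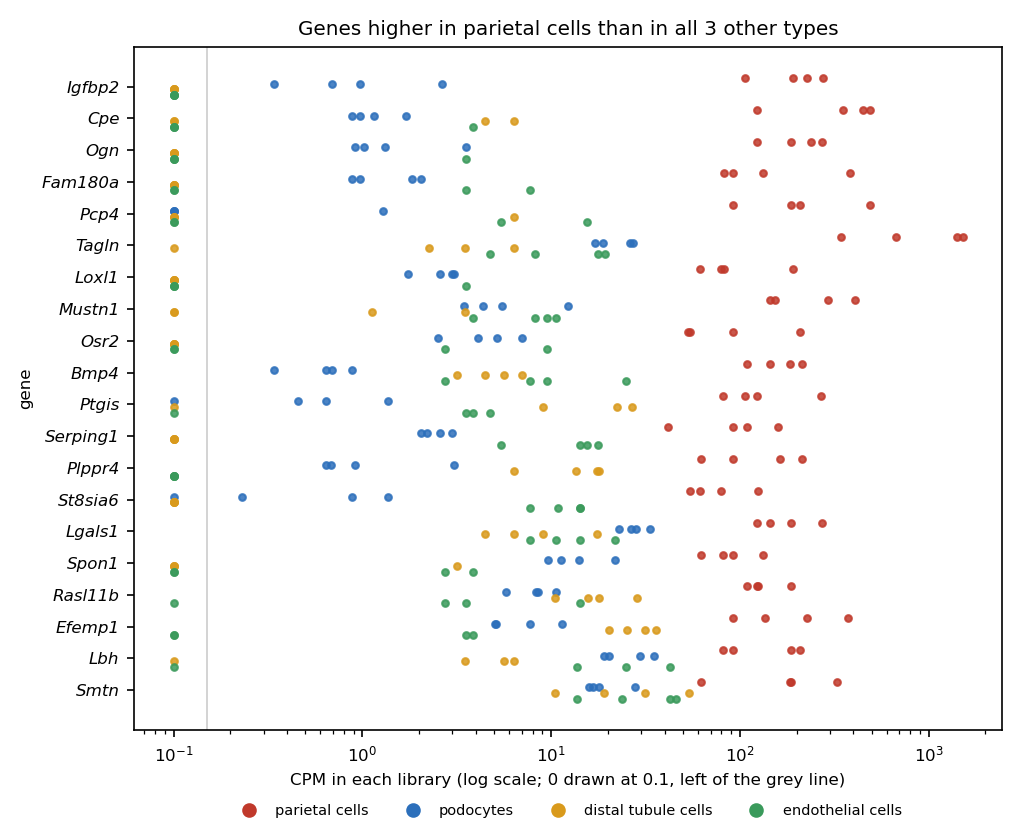
CPM per library (log axis, with 0 drawn at 0.1) of the 20 genes with the widest margin over all 3 other types, in parietal cells (red), podocytes (blue), distal tubule (yellow) and endothelial cells (green). Each red point lies to the right of the other colours of its library, as the choice of these genes required. For Igfbp2 the tubule and endothelial points are at 0.

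The promoters of 2 of these genes are shown because they carry a TGANTCA word, the site read by AP-1 factors such as Fos and Jun. The sequences are the 250 bases before the start in RefSeq (GRCm38.p6), 5′ to 3′ on the gene's strand, with the word in capitals. For Igfbp2 this is chr1:72825137-72825386 on the plus strand (1 of 2 starts in the table), and for Fam180a chr6:35326142-35326391 on the minus strand.
Igfbp2: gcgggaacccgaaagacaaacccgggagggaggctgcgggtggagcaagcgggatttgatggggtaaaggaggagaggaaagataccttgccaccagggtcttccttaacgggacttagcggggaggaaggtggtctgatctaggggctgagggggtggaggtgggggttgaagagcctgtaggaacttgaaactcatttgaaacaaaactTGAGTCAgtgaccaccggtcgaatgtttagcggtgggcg
Fam180a: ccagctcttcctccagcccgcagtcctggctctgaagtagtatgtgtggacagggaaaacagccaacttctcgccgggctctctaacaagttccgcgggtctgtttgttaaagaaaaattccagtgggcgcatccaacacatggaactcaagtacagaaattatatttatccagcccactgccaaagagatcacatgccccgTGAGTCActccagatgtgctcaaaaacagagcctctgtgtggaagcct
The word lies 39 to 33 bases before the start of Igfbp2 and 48 to 42 bases before that of Fam180a. In the 300-base promoters of RefSeq, which also hold the first 50 transcribed bases, 34 of the 50 genes had an entry, with 42 promoters. TGANTCA, which reads the same on both strands, was in 6 of the 42 (14.3%) and in 7.81% of all 32851 promoters. GGAATG, the word of TEAD factors, was on either strand in 8 of the 42 (19.0%) and in 14.7% of all. The CArG box of serum response factor was in 1 of the 42 (Vcl, 2.38%) and in 1.63% of all. A match is a description of the letters and not a site.

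Of the 20 genes, 4 encode matrix proteins. Ogn, a small leucine-rich proteoglycan, had 273, 123, 239 and 187 CPM, Loxl1, which cross-links elastin, 191, 61.4, 79.8 and 83.0 CPM, and Efemp1, a fibulin, 136, 92.1, 372 and 228 CPM. Spon1, an adhesive matrix protein, had 81.9, 92.1, 133 and 62.2 CPM and the smallest margin over podocytes of the 4 (log2 difference 2.52 ± 0.57 (SE), edgeR adjusted p = 0.00122). All 4 lay above every podocyte, tubule and endothelial library, which for Ogn, Loxl1 and Spon1 follows from how they passed the filter. Ogn and Loxl1 had no UMI in tubule cells, and were at least 118-fold and at least 58.8-fold higher than there. Mural cells, which were not part of the test, held 155 CPM of Ogn and 59.1 CPM of Loxl1.

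Tagln, or transgelin, an actin-bound protein of smooth muscle, had 1419, 675, 346 and 1514 CPM, and stood at 22.3 ± 5.04 CPM (SD, n = 4) in podocytes (log2 difference 5.29 ± 0.25 (SE), edgeR adjusted p = 1.9e-29). Mustn1, a small nuclear protein known from muscle and skeleton, had 409, 153, 293 and 145 CPM and Smtn, or smoothelin, which binds actin, 327, 184, 186 and 62.2 CPM, the lowest of which was still above all podocyte, tubule and endothelial libraries. The 178 mural cells held 4654 CPM of Tagln, 1759 CPM of Mustn1 and 168 CPM of Smtn. The 11 mural genes outside the rule summed to 0.0612% to 0.177% of parietal UMIs by library and to 0.00623% to 0.00809% of podocyte UMIs. Of these 11, Cnn1, Gata3 and Itga8 were at 0 UMIs in parietal cells and Acta2 had 1. Against podocytes 3 were tested, and 2 of them, Tagln and Ptn, were higher. The part of mural RNA in these levels was not tested.

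Cpe, a carboxypeptidase of prohormone processing, was at 491, 123, 452 and 353 CPM against 1.18 ± 0.374 CPM (SD, n = 4) in podocytes (log2 difference 7.82 ± 0.49 (SE), edgeR adjusted p = 2.4e-22). Ptgis, the prostacyclin synthase, had 81.9, 123, 106 and 269.7 CPM against 0.618 CPM, and Serping1, the inhibitor of the first complement component, 109, 92.1, 159.6 and 41.5 CPM against 2.45 CPM. Mural cells held 209 CPM of Ptgis and 385 CPM of Serping1, above the parietal means. They also held 141 CPM of Cpe, above its level in parietal replicate 2. St8sia6, a sialyltransferase, had 54.6, 61.4, 79.8 and 124 CPM and Plppr4, a membrane protein of the lipid phosphatase family, 164, 92.1, 213 and 62.2 CPM. Their podocyte means were 0.619 and 1.33 CPM, and St8sia6 had no UMI in tubule or mural cells. Osr2, an odd-skipped transcription factor of the kidney mesenchyme, had 54.6, 92.1, 53.2 and 207 CPM, no UMI in tubule or mural cells, and 4.70 CPM in podocytes (log2 difference 4.36 ± 0.66 (SE), edgeR adjusted p = 6.8e-07).

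Pcp4, a calmodulin-binding peptide, stood at 491, 92.1, 186 and 207 CPM against 0.322 CPM in podocytes, and Fam180a at 382, 92.1, 133 and 83.0 CPM against 1.43 CPM. Replicate 1 was the highest library for both. Neither had a UMI in mural cells. Echdc2, which was not higher than in tubule cells, had 27.3, 30.7, 26.6 and 41.5 CPM, each below the level of 3 UMIs in its library. It had no UMI in endothelial cells, and was at least 12.0-fold higher than there. Against podocytes, at 2.41 CPM, its call was lost without replicate 1 (edgeR adjusted p = 0.0733), replicate 3 (0.0756) or replicate 4 (0.225). Lgals1 (galectin-1), Rasl11b (a Ras-like GTPase) and Lbh (a transcription cofactor) were higher by 2.56, 3.85 and 2.33 on the log2 scale than in podocytes. Mural cells held 552 CPM of Lgals1 and 561 CPM of Lbh.

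The gene lists were compared with podocytes, the most frequent cells of the libraries. Lists were chosen with earlier results of these data known, so each is described by its counts and its median beside the median of -0.14 over all genes tested, of which 3.45% were higher and 3.59% lower. The counts below are read against those shares, and nothing is called particular to a list from them. Those shares and the median of -0.14 belong to the fit with the filter on low counts and all parietal cells. With no filter, 257 of all genes were higher than in podocytes and 1547 lower. In the parietal cells with the lowest podocyte share alone, 208 were higher and 518 lower. A list's shift towards lower calls in either setting is read beside these totals, and is not called particular to it. Genes named below that did not pass the test, and Id1, Id3, Spp1, Cd24a, Ackr3, Itgb1, Fos and Jun, were chosen after their values were seen. Adamts1, Fbln5, Fstl1, Sox4, Ier5 and Clu are given below against podocytes only. They were not among the 50 genes higher in parietal cells than in all 3 other types.

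**Figure D5:**
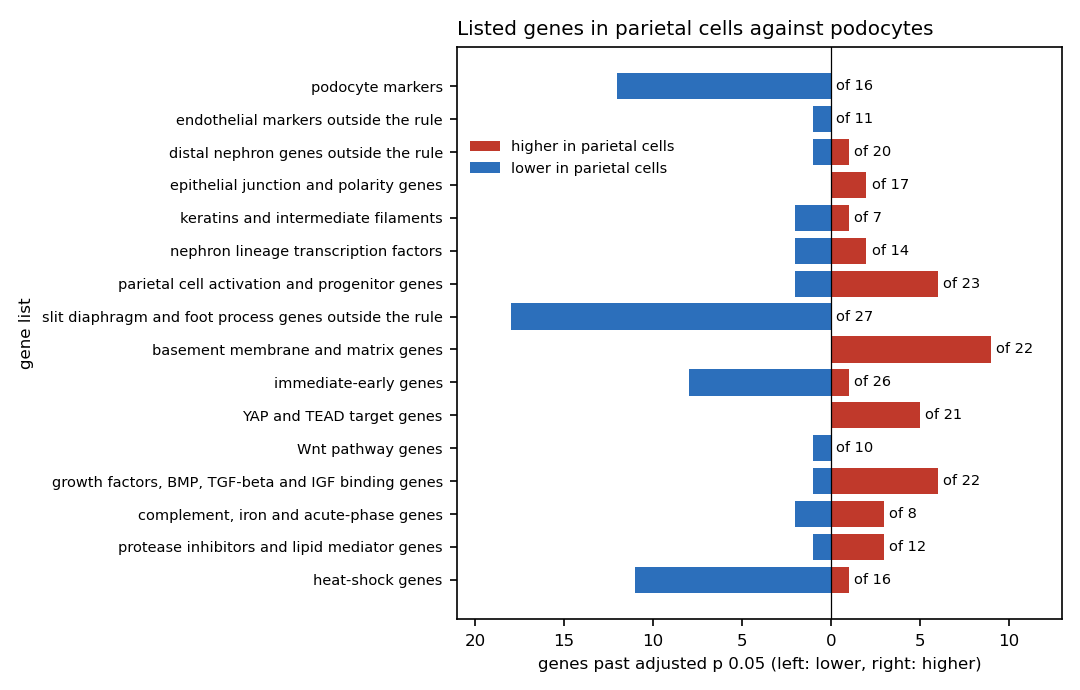
Number of genes of each list past adjusted p 0.05 (edgeR) that were lower (blue, left) or higher (red, right) in parietal cells than in podocytes, with the number tested; lists with fewer than 5 tested genes are left out. Matrix genes lie on the right with 9 of 22, and slit diaphragm and heat-shock genes on the left with 18 of 27 and 11 of 16.

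Of the basement membrane and matrix list, 22 of 46 genes were tested, and 9 were higher and 0 lower. The median was 1.51, or 2.23 without the 1 tested gene at 0 UMIs in parietal cells. With no filter on low counts 10 were higher and 5 lower, and the median was -0.04. A gene near 0 in podocytes passed the filter only through another type where it was high. The counts and medians of this list and of those below therefore depend on the filter. The median also moved to 0.73 without replicate 4 and 0.98 without replicate 1, and to 0.39 in cells with at least 4 marker UMIs, 0.46 with only podocytes and parietal cells fitted, 0.67 in the 51 cells with the lowest podocyte share and 0.69 without Cp in the rule. With only the compared types fitted 5 were higher, and 6 were without replicate 3. Adamts1, a secreted metalloprotease, had 2183, 1013, 1623 and 1431 CPM against 305 ± 41.7 CPM (SD, n = 4) (log2 difference 2.23 ± 0.17 (SE), edgeR adjusted p = 3.0e-18). Col4a1, a chain of the ubiquitous type IV collagen network, had 164, 30.7, 266 and 104 CPM against 2.11 ± 1.17 CPM (SD, n = 4) (log2 difference 5.81 ± 0.60 (SE), edgeR adjusted p = 3.8e-12). Endothelial cells had 149 CPM of it. Col4a3 and Col4a4, chains of the mature glomerular network made by podocytes, gave 1167 and 901 CPM in parietal cells and 1251 and 955 CPM in podocytes, with adjusted p = 0.34 and 0.494 by edgeR. Fbln5, an elastic fibre protein, had 136, 30.7, 53.2 and 104 CPM against 0.562 CPM (log2 difference 6.74 ± 0.82 (SE), edgeR adjusted p = 9.7e-10).

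Of the growth factor list, 22 of 46 genes were tested, with 6 higher and 1 lower (median 2.20). Without replicate 1 or replicate 4, 4 were higher, and without replicate 1 the median was 0.66. It was 0.29 at a mitochondrial limit of 10%, and 1.19 with no filter on low counts, where 9 of 42 were higher and 4 lower. Without Cp in the rule 3 were higher. Besides Bmp4 and Igfbp2, the higher genes were Id1, Id2 and Id3, the helix-loop-helix targets of BMP signalling, and Ptn. Id2 had 164, 30.7, 26.6 and 104 CPM against 4.34 ± 0.765 CPM (SD, n = 4) (log2 difference 4.12 ± 0.65 (SE), edgeR adjusted p = 1.4e-06). Without Cp in the rule the difference of Id2 was 2.54 and no longer passed (edgeR adjusted p = 0.145). Id1 had 109, 30.7, 106 and 104 CPM against 9.40 CPM, without overlap, while Id3 was at 0 in replicate 2 and at 191 CPM in replicate 1. Endothelial cells held 351, 189.6 and 424 CPM of Id1, Id2 and Id3. Ptn, or pleiotrophin, was found in replicates 1 and 3 only, and lost its call without replicate 3 (edgeR adjusted p = 0.116) and without replicate 4 (0.0643). Vegfa, the endothelial growth factor of podocytes, was the lower gene, at 464, 982, 718 and 975 CPM against 1781 ± 84.0 CPM (SD, n = 4) (log2 difference -1.32 ± 0.17 (SE), edgeR adjusted p = 5.5e-09). Bmp7 had 63.0 against 109 CPM (edgeR adjusted p = 0.286).

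Among 38 genes linked to parietal cell activation and progenitor states, 23 were tested, with 6 higher and 2 lower (median 0.48). With no filter on low counts 5 of 37 were higher and 5 lower, and the median was -0.23. It was 0.75 without replicate 1 and 0.18 in the 51 cells with the lowest podocyte share. Hbegf, a ligand of the EGF receptor that is known from crescent formation, had 955, 614, 958 and 913 CPM against 18.1 ± 5.93 CPM (SD, n = 4) (log2 difference 5.47 ± 0.25 (SE), edgeR adjusted p = 1.9e-29). None of the 4 libraries overlapped with podocytes, while distal tubule cells held 369.9 CPM and endothelial cells 783 CPM. Cxcl12, a chemokine, had 327, 61.4, 426 and 311 CPM against 55.9 CPM, and its scavenger receptor Ackr3 136, 184, 319 and 124 CPM against 57.2 CPM. Akap12, a kinase scaffold, was higher too (log2 difference 2.88 ± 0.36 (SE), edgeR adjusted p = 2.8e-09), as were Spp1 (osteopontin) and Cd24a, which both had libraries at 0. Spp1 was at 3169.6 CPM in tubule cells and Cd24a at 1784 CPM in endothelial cells, both above the parietal means of 233 and 82.9 CPM. Gas1 was lower at 764, 491, 638 and 726 CPM against 1489.8 ± 362 CPM (SD, n = 4), and Itgb1 was lower by a log2 difference of -0.51. Cd44, the adhesion receptor known from activated parietal cells, had UMIs in replicate 4 only and was under the filter, and the proliferation genes Mki67 and Top2a were at 0 UMIs.

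Of 26 YAP and TEAD target genes, 21 were tested, with 5 higher and 0 lower (median 0.44). With no filter on low counts there were 2 higher and 4 lower, with a median of -0.30. Over all genes that setting gave 257 higher and 1547 lower. Without replicate 4, 3 were higher. Ctgf, a matricellular protein, had 2183, 1841, 1330.0 and 2800.5 CPM against 651 ± 158 CPM (SD, n = 4) (log2 difference 1.51 ± 0.14 (SE), edgeR adjusted p = 9.6e-15). Its relative Cyr61 had 2565, 1811, 1091 and 2635 CPM against 903 ± 159.6 CPM (SD, n = 4) (log2 difference 0.99 ± 0.14 (SE), edgeR adjusted p = 3.9e-08). In the 51 cells with the lowest podocyte share the difference of Cyr61 was 0.18 (edgeR adjusted p = 0.654), and with no filter 0.28 (0.267). Fstl1, a secreted glycoprotein, had 218, 92.1, 133 and 290.4 against 35.9 CPM. F3, the tissue factor of coagulation, had 491, 215, 186 and 394 against 135 CPM and lost its call without replicate 1 (edgeR adjusted p = 0.0714) and without replicate 4 (0.0794). Ankrd1 had 136, 30.7, 346 and 311 against 62.5 CPM and lost it without replicate 4 (0.0904). Its replicate 2 lay below the podocyte libraries. The regulators Yap1, Wwtr1 and Tead1 themselves gave 111, 175 and 127 CPM against 72.9, 85.6 and 122 CPM, and none passed the test.

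The slit diaphragm and foot process list went the other way. The podocyte list gave 12 lower and 0 higher of 16 tested genes (median -0.86). The slit diaphragm list gave 18 of 27 lower and 0 higher than in podocytes (median -0.82). Many genes are in both lists, Cdkn1c, Thsd7a, Sema3g and Dach1 among them, so the counts are not separate. In the 51 cells with the lowest podocyte share the medians were -1.81 and -1.73. Those cells were chosen for few podocyte transcripts, so lower medians follow from the choice and add no support. Against tubule cells 24 of the 27 were higher (13.5% of all genes were), and against endothelial cells 21 (10.5% of all genes). Cdkn1c, the cell cycle inhibitor of mature podocytes, had 2183, 3376, 1596 and 2219.6 CPM against 7448 ± 369 CPM (SD, n = 4) (log2 difference -1.86 ± 0.14 (SE), edgeR adjusted p = 3.3e-18). It stood at 526 CPM in tubule and 1026 CPM in endothelial cells. Robo2, a guidance receptor of the slit diaphragm, had 109, 215, 213 and 311 CPM against 654 ± 23.4 CPM (SD, n = 4) (log2 difference -1.72 ± 0.24 (SE), edgeR adjusted p = 9.5e-08). Rhpn1, a protein of foot processes, had 109, 522, 293 and 249 CPM against 803 CPM, and Clic3, a chloride channel family member, 546, 1596, 692 and 436 CPM against 1849 CPM. Every parietal library lay below every podocyte library for these 4 genes. Named list genes were picked by p among those with the same direction in 4 of 4 libraries. Podocytes were also chosen by their podocyte transcripts, so this separation adds no support. Thsd7a, a membrane protein of podocytes, and Sema3g, a secreted semaphorin, were lower by log2 differences of -1.14 and -0.96. Myo1e, Actn4 and Dach1 did not pass the test, at 304, 634 and 404 CPM against 328, 743 and 358 CPM. The share of 20 podocyte transcripts given above moved with these levels, and its part in them was not tested.

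Transcription factors of the nephron lineage were split, with 2 of 14 tested higher and 2 lower. Their median was -0.45, or -0.32 without the 3 tested genes at 0 UMIs in parietal cells. Sox4 had 136, 215, 186 and 290.4 CPM against 3.85 ± 1.63 CPM (SD, n = 4) (log2 difference 5.65 ± 0.46 (SE), edgeR adjusted p = 1.5e-16) and the other higher gene was Osr2. Tcf21, a podocyte factor, was among the lower genes, at 518, 767, 266 and 456 CPM against 878 CPM. Wt1, a factor of both podocytes and the embryonic capsule, had 546, 399, 532 and 498 CPM against 562 ± 34.6 CPM (SD, n = 4) (log2 difference -0.32 ± 0.21 (SE), edgeR adjusted p = 0.461). It did not follow the podocyte share in one direction. The cells with less podocyte transcript had 683, 221, 329 and 583 CPM and those with more 438, 526, 723 and 414 CPM. Foxc1, Foxc2 and Lmx1b differed from podocytes by -0.03, -0.16 and -0.15 on the log2 scale, with SEs of 0.34, 0.33 and 0.45.

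Heat-shock genes were lower in parietal cells for 11 of 16 and higher for 1 (median -0.91). Dnaja1, a co-chaperone, had 273, 491, 426 and 519 CPM against 993 ± 178 CPM (SD, n = 4) (log2 difference -1.36 ± 0.19 (SE), edgeR adjusted p = 4.3e-08). Hsp90ab1 had 1801, 2240.2, 2181 and 2406 CPM against 3421 CPM. Hspb1, a small heat-shock protein, had 409, 675, 319 and 747 CPM against 990.4 CPM. With no library block 4 of the 16 were lower, and Hspb1 was not among the calls. The gene that went against the list was Cryab, a small heat-shock protein of the lens and muscle, at 2101, 2394, 1702 and 3339.8 CPM against 1011 ± 121 CPM (SD, n = 4) (log2 difference 1.09 ± 0.13 (SE), edgeR adjusted p = 5.8e-10). Tubule and endothelial cells had 164 and 186 CPM of it. The near-identical genes Hspa1a and Hspa1b share nearly all of their sequence, so their separate counts are uncertain.

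Of 26 tested immediate-early genes 8 were lower and 1 higher (median -0.32). Ier5 was the higher one, at 327, 123, 186 and 311 CPM against 19.8 ± 4.65 CPM (SD, n = 4) (log2 difference 3.42 ± 0.39 (SE), edgeR adjusted p = 1.2e-10). Klf6, Ier2 and Dusp1 were among the lower ones, with Klf6 at 1774, 1688, 1596 and 2012 CPM against 2648 CPM. Fos, at 8578 against 10786 CPM, and Jun, at 5023 against 6619 CPM, were lower by log2 differences of -0.48 and -0.55. With Atf3 they had the 3 highest parietal levels of the list. In the 51 cells with the lowest podocyte share 13 were lower and 2 higher, where 518 of all genes were lower and 208 higher. Without replicate 4 or with no library block 5 of the list were lower and 1 higher.

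Smaller lists had few calls. In the complement and iron list 3 of 8 tested genes were higher and 2 lower. The median was -0.06, -0.01 without the 1 tested gene at 0 UMIs in parietal cells, and 0.02 with relative log expression. The higher ones were Serping1, Clu (clusterin, 164, 30.7, 106 and 62.2 against 9.44 CPM) and Apoe, whose call was lost without replicate 1 (edgeR adjusted p = 0.163) and without replicate 3 (0.147). The membrane inhibitors of complement Cd55 and Cd59a were lower, with Cd55 at 191, 123, 186 and 124 CPM against 380.5 CPM and Cd59a at 1201, 1258, 1303 and 975 CPM against 2311 CPM. In the protease inhibitor and lipid list Ptgis, Serpinh1 and Cst3 were higher and Lpl was lower among 12 tested. The median was -0.19, or 0.54 without the 3 tested genes at 0 UMIs in parietal cells. Cst3, or cystatin C, had 2156, 1811, 1463 and 1867 CPM against 1136 CPM and lost its call without replicate 1 (edgeR adjusted p = 0.206) and without replicate 4 (0.0515). With no filter on low counts its difference was -0.17. Serpinh1 lost it without replicate 1, 2 or 3 (0.198, 0.144 and 0.362), and Lpl without replicate 1, 2 or 4 (0.203, 0.0909 and 0.123).

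Epithelial junction genes gave 2 calls among 17 tested, both higher, and 1 with no library block. Their median was -0.21, or 0.21 without the 5 tested genes at 0 UMIs in parietal cells. Cdh16, the kidney cadherin, had 54.6, 0, 0 and 207 CPM against 2.53 CPM and lost its call without replicate 4 (edgeR adjusted p = 0.423). Epcam had UMIs in replicate 4 only (83.0 CPM), lost its call without replicate 1 (edgeR adjusted p = 0.0515), and without replicate 4 its difference turned from 3.41 to -4.26. Cdh1, Ocln and the claudins Cldn3, Cldn4 and Cldn7 were at 0 UMIs in the 102 cells, which allows up to 19.4 CPM. Among 7 tested keratins and intermediate filaments 1 was higher and 2 lower. Their median was 0.16, or 0.30 without the 1 tested gene at 0 UMIs in parietal cells. Vim, the vimentin gene, had 5676, 3836, 4362 and 4875 CPM against 3159 ± 286 CPM (SD, n = 4) (log2 difference 0.44 ± 0.14 (SE), edgeR adjusted p = 0.0489). Its call was lost without replicate 1, 3 or 4 (0.225, 0.067 and 0.355 by edgeR). The difference of Vim was -0.26 with no filter on low counts and -0.012 in the 51 cells with the lowest podocyte share. Krt7 was lower at 10.4 against 80.1 CPM, with a call lost without replicate 1 or 3 (0.0664 and 0.0864). Nes was lower with a log2 difference of -0.53 ± 0.15 (SE), a call lost without replicate 1 or 3 (0.117 and 0.0947). In the Wnt list 1 of 10 tested genes passed, Wif1, which was lower. Its call was lost without replicate 1, 3 or 4 (edgeR adjusted p = 0.358, 0.0959 and 0.164). The median of the list was -0.99, or -0.92 without the 1 tested gene at 0 UMIs in parietal cells.

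Genes of other nephron segments and blood-borne cells were low. The 25 distal nephron genes outside the rule took 0.0479% to 0.083% of parietal UMIs by library, 0.0661% to 0.0927% of podocyte UMIs and 3.49% to 4.53% of tubule UMIs. Against podocytes 1 of the 20 tested was higher and 1 lower. Atp1b1 was higher (191, 123, 133 and 207 against 46.0 CPM, lost without replicate 4, edgeR adjusted p = 0.0779). Egf was lower (54.6, 0, 53.2 and 104 against 178 CPM). The 28 proximal tubule genes took 0.0123% to 0.0266% of parietal UMIs and 0.00129% to 0.00215% of podocyte UMIs. Endothelial cells held more, 0.0515% to 0.0683% of their UMIs. Of the 28, 21 were at 0 UMIs in parietal cells and 2 were tested, of which Gatm, which makes the precursor of creatine, was higher than in podocytes (136, 92.1, 213 and 20.7 against 8.16 CPM, log2 difference 3.57 ± 0.59 (SE), edgeR adjusted p = 3.7e-06). Of 12 endothelial genes outside the rule 8 were at 0, Kdr, Tek and Tie1 among them, and 1 of 11 tested passed. This gene, Plat, the tissue plasminogen activator, was lower than in podocytes (791, 1412, 612 and 954 against 1611 CPM). The 5 red blood cell genes were at 0 UMIs, and neither these nor the immune genes passed the filter.

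The 10 lowest fitted differences from podocytes belonged to genes without a UMI in the 102 cells, so the fitted values are no bound and give no order of size. Myl7, an atrial myosin light chain, was at 115 ± 17.8 CPM (SD, n = 4) in podocytes and at 0 in all 4 parietal libraries, or at least 6.09-fold lower when 3 UMIs stand for 0 (edgeR adjusted p = 1.6e-05). C1galt1c1 and Mgat4b, both of glycan synthesis, had 53.5 and 48.2 CPM in podocytes, which gives at least 2.76-fold and at least 2.46-fold. Mgat4b lost its call without replicate 4 (edgeR adjusted p = 0.0546). The other 7 of these 10 genes (Ehd1, Flii, Rnf168, Stat6, Bpgm, Ccdc58 and Slc25a1) had bounds between 1.68-fold and 2.15-fold. Each of the 7 lost its call without at least 2 of the 4 libraries, with edgeR adjusted p up to 0.135.

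In the bulk libraries, where fewer cells of a type and less RNA per cell cannot be told apart, each group had 1 library and there was no test. The levels are CPM scaled by TMM factors. Cp stood apart among the markers, at 64.9 CPM in whole glomeruli and 8.76 CPM in dissociated cells (log2 ratio 2.88). Lsp1 had 14.9 and 28.6 CPM, Dkk3 12.8 and 23.2 CPM, Pla2g7 22.7 and 33.7 CPM, Cldn1 16.0 and 19.6 CPM and Pax8 12.3 and 12.6 CPM. These 5 were level or higher in the dissociated cells, and Cst12 had under 100 counts.

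Of the 50 genes higher in parietal cells than in podocytes, distal tubule and endothelial cells alike, 48 had at least 100 bulk counts. 8 of them were more than 2-fold higher in whole glomeruli and 21 more than 2-fold higher in dissociated cells (median log2 ratio -0.71, against 0.01 over 12692 genes, of which 18.9% and 10.7% passed that fold in the same directions). Bmp4 (27.4 against 5.04 CPM), Serping1 (113 against 17.5 CPM) and Lbh (201 against 35.1 CPM) were higher in whole glomeruli. In the Drop-seq libraries mural cells, which were not part of the comparison, held 3.96, 385 and 561 CPM of these genes. Parietal means were 163, 101 and 142 CPM. F3 (23.7 against 208 CPM), Cyr61 (161 against 1604 CPM) and Igfbp2 (1.2 against 4.81 CPM) were higher in dissociated cells. The other cell types of the glomerulus express many of these genes, and dissociation, fixation and RNA input differed between the libraries together.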

How the data were processed

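The authors deposited raw counts for 4 Drop-seq libraries (gene by barcode; that they count UMIs follows from Drop-seq) and 2 bulk libraries. STAR and HTSeq are named per the submitters' processing notes; versions, genome build, annotation and strand setting are not given in the sources used here. Lines without a gene held 22.9% (whole) and 24.8% (dissociated) of the deposited bulk counts and were left out. Drop-seq totals ran from 3528543 to 6411775 UMIs, and bulk totals were 28407317 and 24555632 counts.

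UMIs of each type were added up per library. 4 types entered 1 fit (edgeR 4.0.16, R 4.3.3, filterByExpr, TMM, glmQLFit, glmQLFTest) with the library as a block, since the types of a library share it, and Benjamini-Hochberg adjustment at 0.05. SEs of log2 differences were derived from that test, as the absolute difference over the square root of its F statistic. The code was tested on simulated data. Bulk ratios (TMM, prior count 2) left out genes under 100 counts. DESeq2 1.42.0 was an alternative.

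Named genes are up to 20 higher than in all 3 types in 4 of 4 libraries with at least 30 CPM, ranked by the smallest fold, the 10 highest and 10 lowest against podocytes, the 5 highest against each other type, and up to 4 per list; others were chosen after their values were seen. Cells and lists were chosen with earlier results of these data known. Mapping genes to RefSeq used GRCm38.p6 promoters. Some genes of these lists are not reported here.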

Additional observations from a re-analysis of the deposited data

Results flagged for a closer look

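For 2 genes replicate 1 stood apart from the other 3 libraries by Dixon's 95% critical value for 4 samples. Fam180a was at 382 CPM in the parietal cells of replicate 1 and between 83.0 and 133 CPM in the others. Loxl1, the elastin cross-linking enzyme, was at 191 CPM in replicate 1 and between 61.4 and 83.0 CPM in the others. In 36 series measured, chance would mark about 1 in 20. Both genes were above podocytes, distal tubule and endothelial cells in each of the 4 libraries, which follows from how they passed the filter on low counts.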

How the results depend on the processing

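Genes higher than in podocytes numbered 213, and 373 with DESeq2. Genes lower than in podocytes numbered 222, against 137 with DESeq2, 140 with library totals (chosen after seeing the data), 1547 with no filter on low counts and 518 in the 51 cells with the lowest podocyte share. Leaving out 1 library gave 147 to 238 higher and 131 to 248 lower. Against distal tubule cells, higher genes were 1336 with library totals, 514 with only the compared types fitted, 314 at a mitochondrial limit of 10% and 415 in the cells of lowest podocyte share (657 to 787 with 1 library left out). Lower genes were 1729 with no filter, 696 with the compared types and 400 at the 10% limit (867 to 946). Against endothelial cells, higher genes were 428 with the compared types, 425 at 4 marker UMIs and 295 in the cells of lowest podocyte share (462 to 617), and lower genes 1400 with no filter and 577 with the compared types (718 to 818). The cause was not tested. The left-out Lsp1 difference was 551 CPM at 2 marker UMIs. Without the library block 183 genes were higher and 161 lower than in podocytes, 827 and 1030 than in tubule and 622 and 852 than in endothelial cells; of 81 named genes, 71 kept their call and 10 lost it. 23 of the 81 lost their call without some library. Direction turned for Cst3 with no filter (-0.17), Epcam with 1 library left out (-4.26 without replicate 4, up to 4.41), and Vim with no filter (-0.26) and in the cells of lowest podocyte share (-0.012). With 102 cells, a gene under 19.4 CPM could be missed.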
